A study of Mus musculus with 11 samples.

Results

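Enzymes that write and erase marks on histones and DNA were followed through 8 single-nucleus RNA tables of the mouse trigeminal ganglion, the ganglion that houses the sensory neurons of the face. A gene was included when its symbol named a histone deacetylase (Hdac), sirtuin (Sirt), lysine acetyltransferase (Kat), lysine demethylase (Kdm), lysine methyltransferase (Kmt or Setd), Ezh methyltransferase, Tet oxidase or DNA methyltransferase (Dnmt) and the gene had at least 50 UMIs, that is, counted RNA molecules, over the 7 tables made on the 10x platform. Of 24243 symbols in the tables, 70 carried such a name and 65 passed the minimum. The 5 left out were the antisense transcript Dnmt3aos with 31 UMIs, Dnmt3l with 20, the pseudogene Kat2b-ps with 3, the antisense transcript Kdm6bos with 2 and Setd8, an older symbol of Kmt5a, with 0. Dnmt3b was the lowest member with 216 UMIs and Hdac9 the highest with 71132. All 65 were listed in every 10x table and 63 in the Drop-seq table, which has no row for Kdm7a and Kmt5a.

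Each 10x table is 1 library of nuclei pooled from several mice of both sexes, with a minimum age of 6 weeks. The study's methods count this age at surgery, so operated mice were older when sampled. Each condition has 1 library. The control mice, C57BL in the labels and C57BL/6NCrl in the study's methods, were uninjured, and their nuclei were run once on 10x and, as 4 libraries pooled in 1 table, on Drop-seq. Infraorbital nerve transection (IOT), a spared nerve injury that cuts superficial branches of the infraorbital part of the trigeminal nerve, was sampled after 2, 7, 21 and 75 days, and facial injury, small cuts of cheek and forehead skin, after 2 days, all in mice of that strain. The scratch lesion library came from mice of mixed FVBN, C57BL and 129 background carrying Fos-tTA and a tetO-driven mCherry and constitutively active Gnaq, which scratch their faces; per the study's methods no mCherry was seen in their somatosensory neurons. All libraries were enriched for neuronal nuclei with an anti-NeuN antibody.

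Histone acetyltransferases open chromatin by acetylating lysines and deacetylases reverse this. Methyltransferases and demethylases of the Kmt, Setd, Ezh and Kdm families set methyl marks whose effect depends on the lysine: methylation of lysine 4 of histone H3 accompanies active promoters, and methylation of its lysine 27 by Ezh1 and Ezh2, the catalytic subunits of Polycomb, accompanies silenced genes. Dnmt enzymes methylate cytosine and Tet enzymes oxidise methylcytosine on the way to its removal. In sensory ganglia the acetyltransferase Kat2b (PCAF), nuclear export of Hdac5 and the Tet3 oxidase are known to take part in the regrowth of injured axons, and Dnmt3a is known to silence channel and opioid receptor genes after nerve injury.

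Injury state was read in each nucleus from the summed UMIs of Atf3, a transcription factor switched on by axotomy, and Sema6a. A nucleus with at least 2 such UMIs is called marked, one with 0 unmarked, and nuclei with 1 were left out. Marked nuclei made up 2.56% of the 10x control, 17.9%, 10.8%, 9.05% and 8.31% of the libraries from days 2, 7, 21 and 75 after IOT, 2.32% after facial injury and 4.10% with scratch lesions. The 9 genes of an injury program list that does not hold Atf3 or Sema6a, among them Sox11, Gal and Sprr1a, were all higher in marked nuclei after IOT, with a median log2 fold change of 2.40. Summed, these genes stood at 2472, 2785, 2386 and 775 CPM in marked nuclei at days 2, 7, 21 and 75. Unmarked nuclei there had 487, 373, 460 and 299 CPM. In the control the sums were 442 against 359 CPM, with no UMI of Sprr1a and Ecel1 in marked nuclei. Marked nuclei of the control thus barely showed the injury program, and those of day 75 showed less of it than earlier days. Their values below are to be read with this. Marked nuclei were also deeper, with a median of 2257 to 5700.5 UMIs against 1689 to 3925 in unmarked nuclei of the 10x libraries. Of the nuclei given a size class, 71.3% to 91.6% of the marked ones were large, against 47.9% to 61.4% of the unmarked ones. Size class is set by Nefh, the heavy neurofilament of large myelinated neurons, against Scn10a, the sodium channel of nociceptors, and Scn10a was itself lower in marked nuclei (log2 -1.80 after IOT and -1.10 with minor injury), so a higher share of large neurons among marked nuclei and less Scn10a in them cannot be told apart.

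The libraries held 3178 to 8660 nuclei and 7735811 to 22003842 UMIs each. Of 8 neuronal markers, 7 were detected in every library and Tubb3 had no UMIs. The study's notes put the absence of Tubb3 down to its overlap with a predicted gene. All 6 Schwann cell and all 7 satellite glia markers were also detected in unmarked nuclei of every library, at summed levels of 479 to 1309 and 286 to 905 CPM on 10x, against 2980 to 4488 for the neuronal markers. Of 37181 10x barcodes, 781 occurred in more than 1 table, and no pair of tables shared more than 1.37% of the smaller one. Values below are CPM, UMIs scaled to a common total of 1e6 UMIs over the nuclei summed, and intervals are exact 95% Poisson intervals that cover counting error only.

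The promoters of 3 members called after IOT are shown here, 250 bases before to 50 after a RefSeq transcript start. They are from build GRCm38.p6, all on the minus strand, printed 5′ to 3′ along the gene. CpG, the pair of bases on which Dnmt and Tet enzymes act, is in capitals. Tet3 was the member with the largest rise in marked nuclei. Hdac9, the most abundant member, was picked as a rise whose windows hold few CpG. Hdac4, its relative, was the fall most often kept. The windows are chr6:83441629-83441928 for Tet3, chr12:34528840-34529139 for Hdac9 and chr1:92180292-92180591 for Hdac4.
Tet3: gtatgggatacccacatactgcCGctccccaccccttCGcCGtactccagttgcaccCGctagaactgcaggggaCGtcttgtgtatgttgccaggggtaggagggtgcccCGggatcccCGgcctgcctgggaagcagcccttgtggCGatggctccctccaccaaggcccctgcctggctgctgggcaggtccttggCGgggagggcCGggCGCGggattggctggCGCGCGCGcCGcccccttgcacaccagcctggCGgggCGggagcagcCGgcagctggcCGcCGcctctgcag
Hdac9: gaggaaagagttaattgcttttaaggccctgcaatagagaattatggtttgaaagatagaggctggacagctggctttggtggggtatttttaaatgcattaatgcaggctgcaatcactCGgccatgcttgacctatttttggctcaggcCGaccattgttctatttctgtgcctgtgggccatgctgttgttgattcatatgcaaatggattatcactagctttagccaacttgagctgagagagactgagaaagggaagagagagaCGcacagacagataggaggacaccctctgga
Hdac4: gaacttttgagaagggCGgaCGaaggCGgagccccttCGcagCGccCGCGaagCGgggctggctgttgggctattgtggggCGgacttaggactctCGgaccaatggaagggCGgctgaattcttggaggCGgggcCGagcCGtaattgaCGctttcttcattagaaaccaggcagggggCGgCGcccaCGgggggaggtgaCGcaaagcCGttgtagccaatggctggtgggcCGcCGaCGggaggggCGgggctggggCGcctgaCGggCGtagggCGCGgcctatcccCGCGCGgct

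The Tet3 window held 22 CpG and the Hdac4 window 32, whereas the Hdac9 window held 3 and a second Hdac9 window none. Over the 76 windows matched to 53 of the 65 members, the median was 21.5 CpG, against 7 over all 32851 promoter windows. AP-1 is the dimer that Atf3 can join, and its motif (TGANTCA, either strand) was found in 8 of the 76 member windows (10.53%) and in 7.808% of all windows. Members higher in marked nuclei after IOT had 5 windows over 4 genes, both Hdac9 windows among them and none of Hdac1. Of these, 1 held the motif, the Hdac9 window shown, at bases 194 to 200 (TGATTCA). Of the 5 windows of members lower after IOT, 0 held it. The cAMP response element (TGACGTCA, either strand; the motifs cannot coincide) was found in 0 of 76 member windows and in 1.79% of all windows. These matches describe the letters of these windows and were not tested.

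The enzymes differed widely in level, and Hdac9 had the highest CPM on 10x. Hdac9, a class IIa deacetylase that moves between cytoplasm and nucleus, stood at 605 CPM in the 10x control and between 402 and 655 CPM in the 7 10x libraries. It was followed in the control by Kmt2c, a methyltransferase of histone H3 lysine 4, with 241 CPM, Setd5 with 226, Kmt2e with 182, Kdm4c with 178, Dnmt3a with 171 and Setd7 with 169 (members other than Hdac9 and Dnmt3a were chosen here for their level). Dnmt3b at 1.43 CPM, Setd1a at 4.17 and Setd6 at 4.51 were lowest, so of the de novo DNA methyltransferases Dnmt3a supplied nearly all UMIs.

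Introns were counted, which lets long genes gather more UMIs. Across the 65 members the level in the control rose with the length of the gene (Spearman's rho 0.6453 over genes of 1 library, which share its depth). Per kilobase of gene, Sirt7 (5.74 CPM per kb), Kdm6b (4.58), Setd7 (3.71), Kmt2d (3.64) and Kat2a (3.47) led. Hdac9, which spans 869.5 kb on chromosome 12 (34047580 to 34917095, GRCm38, GENCODE annotation), was then only at rank 44 with 0.696 CPM per kb.

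The Drop-seq control had 3733 CPM over the 63 members it lists. Kdm7a and Kmt5a, which it lacks, stood at 63.0 and 70.2 CPM in the 10x control, so its sum covers fewer genes. The summed level of the 65 members was 3856 to 4603 CPM in the 10x libraries, but single members moved more. The highest 10x library exceeded the lowest 6.47-fold for Kdm5d, 5.17-fold for Ezh2, 4.29-fold for Hdac1, 3.54-fold for Sirt6 and 3.20-fold for Kdm6b, whereas it did so only 1.24-fold for Kdm3a and 1.31-fold for Hdac7 (these members were picked for their spread). The Polycomb pair Ezh1 and Ezh2 summed to 160.4 and 171 CPM at days 2 and 7 after IOT and to 63.4 to 99.3 CPM in the other 10x libraries. As each condition is 1 library, these differences have no replicate check.

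**Figure D1:**
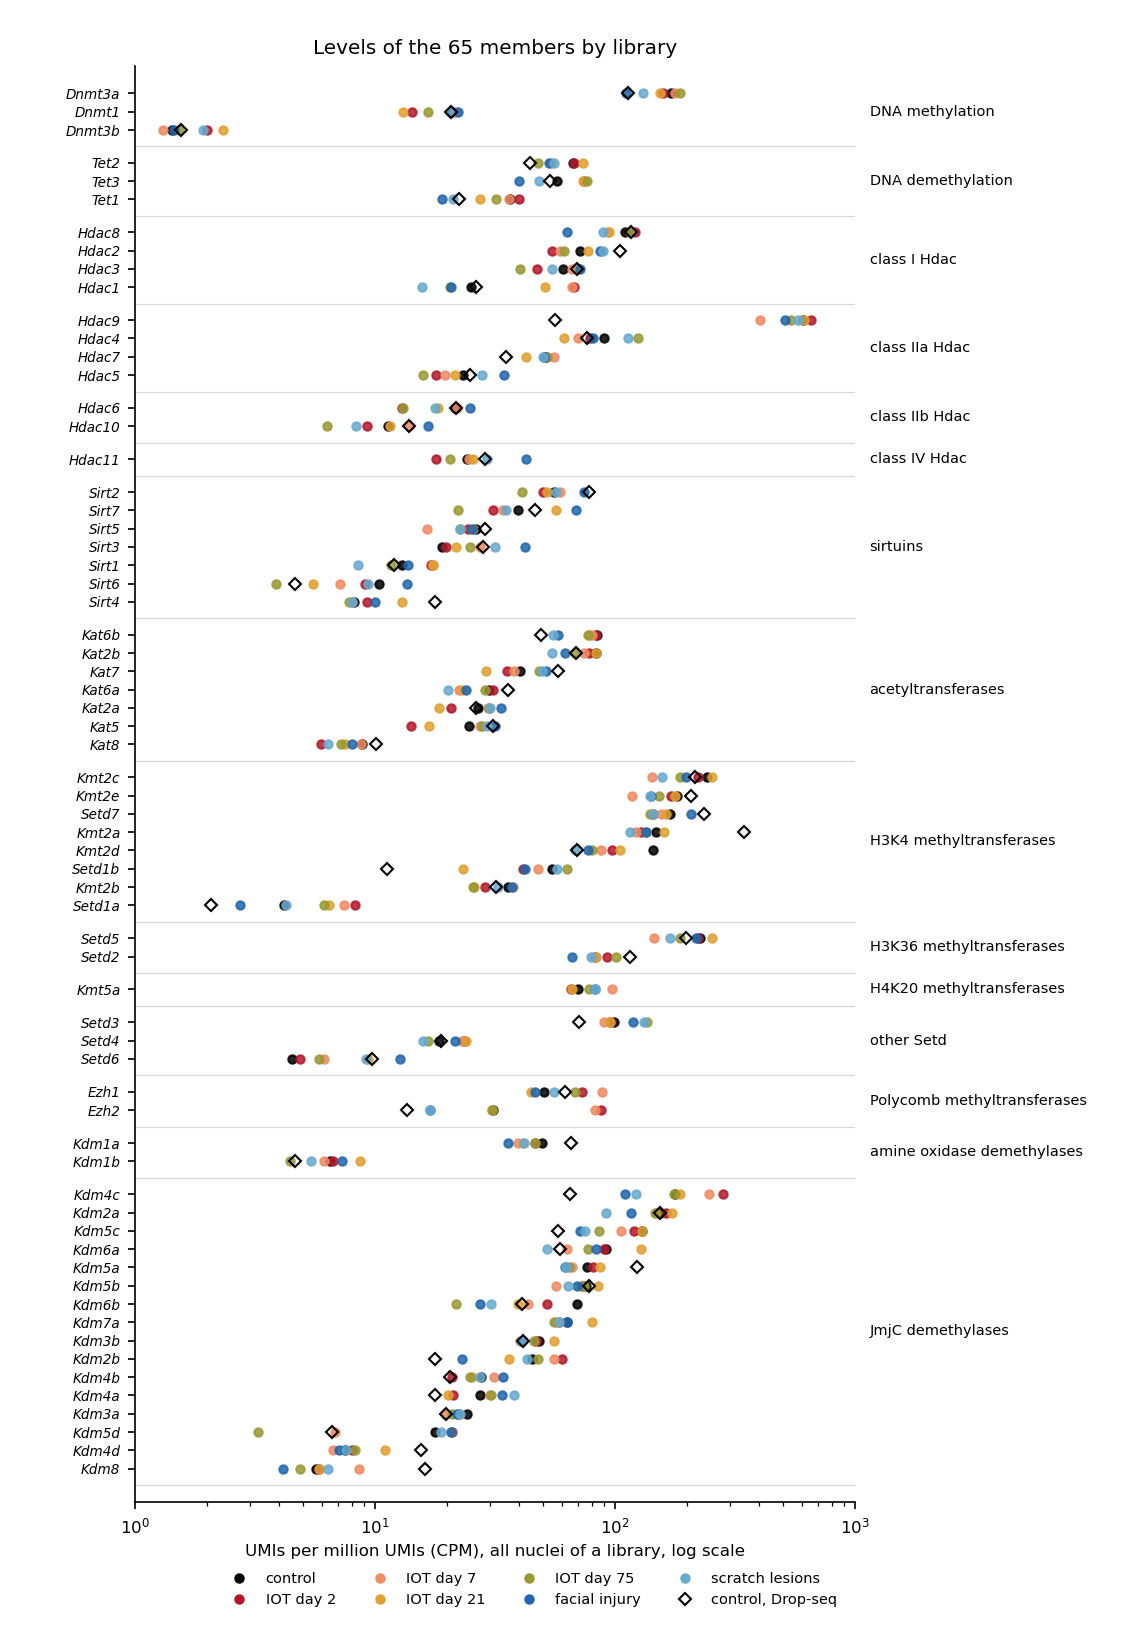
Level of each of the 65 members (rows, ordered by role) in all nuclei of each library, in CPM on a log axis, with 10x libraries as dots and the Drop-seq control as diamonds. Hdac9 lies between 402 and 655 CPM on 10x and at 56.2 CPM on Drop-seq, and Ezh2, Hdac1 and Kdm6b spread more between 10x libraries than most rows.

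Platform mattered for several members. Between the uninjured controls, 15 of 62 members with enough UMIs differed more than 2-fold (24.2%, against 26% of all 12898 genes compared). Hdac9 was 10.8-fold higher on 10x (605 against 56.2 CPM), Setd1b stood at 54.4 against 11.2 CPM, and Kmt2a went the other way with 148 against 343 CPM. Chemistry, mapping software, listed symbols and mice differ between these controls and cannot be told apart. Drop-seq values are therefore only set beside the tests below. The study's methods name the same mm10 genome, modified to count introns, for both platforms.

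After IOT, 5 enzymes were higher and 3 lower in marked nuclei than in unmarked nuclei of the same libraries. Tet3, Hdac1, Ezh2, Hdac6 and Hdac9 rose, and Hdac4, Hdac11 and Dnmt3a fell. Tet3, the oxidase that starts the removal of cytosine methylation, changed most, by a log2 fold change of 1.11. The other 57 members did not pass the test. It compares sums over marked and unmarked nuclei within library (edgeR quasi-likelihood, adjusted p under 0.05, Benjamini-Hochberg over 15866 genes), with the 4 IOT libraries as replicates. Each of these is of another day, so spread over time and between pools cannot be told apart. The facial injury and scratch lesion libraries are in the same fit and share in its spread. The 8 of 65 members called (12.3%) stood below the 16.3% called among all genes (8.97% higher and 7.3% lower, against 7.69% and 4.62% of members), and the median log2 fold change of the members was -0.04 against -0.01 for all genes. Markers moved with state as well. All 6 small neuron markers and 6 of 7 tested neuronal markers were lower in marked nuclei. Of 6 large neuron markers, 3 were lower (Ntrk3, Runx3 and Scn1a) and 1 higher (Ntrk2), with a median log2 fold change of -0.22. Of the Schwann cell markers, 0 of 6 were called, and 2 of 7 satellite glia markers (Kcnj10 and Sparcl1), 1 of 4 vascular (Flt1), 1 of 5 fibroblast (Pdgfra) and 1 of 5 tested leukocyte markers (Cd74) were higher. Over the 7 10x libraries the Schwann cell sum was 470.0 to 1265 CPM in marked and 479 to 1309 CPM in unmarked nuclei, and the satellite glia sum 343 to 1020 CPM and 286 to 905 CPM, higher in marked nuclei in each of the 7. Their part in the results was not tested.

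**Figure D2:**
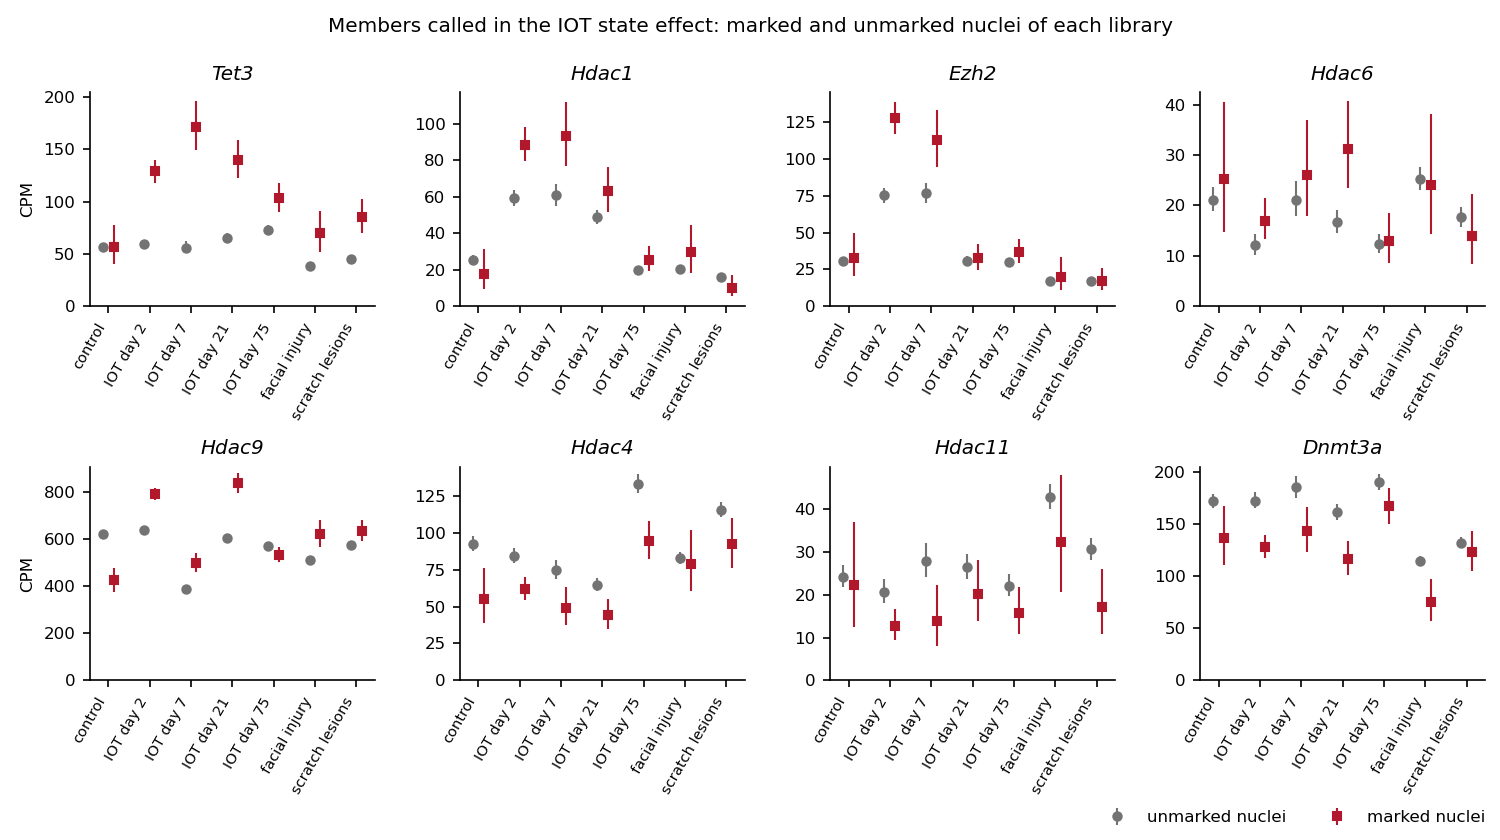
Level of the 8 members called after IOT in marked and unmarked nuclei of each 10x library, in CPM with exact 95% Poisson intervals, 1 panel a gene. Tet3 in marked nuclei rises from 56.6 CPM in the control to between 103 and 172 CPM in the 4 IOT libraries, while unmarked nuclei of those libraries lie between 56.1 and 73.2 CPM.

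Tet3 (chromosome 6, 83362373 to 83459084) stood at 129, 172, 140.2 and 103 CPM in marked nuclei 2, 7, 21 and 75 days after IOT. Unmarked nuclei of the same libraries had 59.2, 56.1, 65.7 and 73.2 CPM, so the 2 states did not overlap. The fold of marked over unmarked was 2.18 (1.94 to 2.44), 3.06 (2.58 to 3.63), 2.13 (1.84 to 2.47) and 1.41 (1.22 to 1.63) in these libraries, and the fit gave a log2 fold change of 1.11 ± 0.14 (SE, 4 libraries, edgeR adjusted p = 5.671e-05). In the uninjured control the states were alike, 56.6 CPM in 112 marked nuclei and 56.5 CPM in unmarked ones, with a fold between 0.704 and 1.39. These marked control nuclei barely showed the injury program, at 442 CPM against 359 CPM in unmarked ones. With minor injury marked nuclei were higher, 69.7 against 38.3 CPM after facial injury and 85.0 against 45.6 CPM with scratch lesions, though the test over these 2 libraries did not call it (log2 0.84 ± 0.24, edgeR adjusted p = 0.0756).

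The paralogs were not called. Tet1 had 36.4, 30.2, 21.2 and 37.0 CPM in marked and 40.2, 37.0, 27.9 and 31.6 CPM in unmarked nuclei at days 2, 7, 21 and 75, and a log2 fold change of -0.08 ± 0.13. For Tet2 the marked levels of 69.0, 62.1, 85.4 and 54.4 CPM lay slightly above the unmarked 68.1, 52.9, 72.1 and 46.6 CPM in each library, with a log2 fold change of 0.21 ± 0.09 that missed the threshold (edgeR adjusted p = 0.161). With nuclei marked after thinning to 1000 UMIs, Tet2 passed the test.

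On the writing side, Dnmt3a (chromosome 12, 3806007 to 3914443) was lower in marked nuclei at each time. It had 128, 144, 117 and 167 CPM in marked nuclei at days 2, 7, 21 and 75 against 173, 186, 162 and 191 CPM in unmarked ones. Levels of the 2 states overlapped between libraries, 167 CPM in marked nuclei of day 75 lying above 162 CPM in unmarked nuclei of day 21, but within every library marked was lower (log2 -0.32 ± 0.09, edgeR adjusted p = 0.026). Marked nuclei also had less after facial injury (75.0 against 115 CPM) and with scratch lesions (123 against 132 CPM). The minor injury effect of -0.36 was not called (edgeR adjusted p = 0.268). The control had 137 against 173 CPM, though its marked nuclei barely showed the injury program. Dnmt1, which copies methylation after replication, stood at 13.2 to 22.1 CPM in marked and 12.5 to 21.0 CPM in unmarked nuclei of the IOT libraries and was not called (log2 0.19 ± 0.15).

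Ezh2, the Polycomb enzyme for lysine 27 of histone H3 (chromosome 6, 47530139 to 47595341), rose in marked nuclei by a log2 fold change of 0.53 ± 0.12 (edgeR adjusted p = 0.00588, 4 of 4 libraries). Marked nuclei had 127, 113, 32.4 and 37.0 CPM at days 2, 7, 21 and 75 and unmarked ones 75.2, 76.6, 30.8 and 29.9 CPM. The difference was thus widest at days 2 and 7, when unmarked nuclei were themselves far above the later libraries, and at day 21 the interval of the fold, 1.05 (0.778 to 1.40), included no change. Without the day 2 library the call was lost (adjusted p = 0.112). Ezh1, its relative in resting cells, had 87.9, 89.1, 43.0 and 74.5 CPM in marked and 69.6, 90.2, 45.1 and 67.9 CPM in unmarked nuclei and was not called (log2 0.16 ± 0.10).

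Hdac1, a class I deacetylase of nuclear corepressor complexes (chromosome 4, 129516104 to 129542713), was also highest at days 2 and 7. Its marked levels were 88.6, 93.2, 63.0 and 25.4 CPM at days 2, 7, 21 and 75, and its unmarked levels 59.2, 60.8, 48.8 and 19.7 CPM. Marked nuclei were higher in all 4 (log2 0.55 ± 0.12, edgeR adjusted p = 0.00503), and without the day 2 library the adjusted p was 0.0579. With minor injury the libraries split, 29.5 against 20.5 CPM after facial injury and 10.1 against 15.8 CPM with scratch lesions. Of the other class I enzymes, Hdac2 had 52.5, 55.6, 76.6 and 63.3 CPM in marked nuclei against 54.7, 59.1, 76.3 and 59.4 CPM in unmarked ones. Hdac3 had 44.8, 47.4, 67.1 and 41.0 CPM against 47.5, 68.8, 70.8 and 40.8 CPM, and neither was called (log2 0.03 ± 0.09 and -0.11 ± 0.10).

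Within class IIa, Hdac4 fell and Hdac9 rose. Hdac4 (chromosome 1, 91928779 to 92195699), known in sensory ganglia for a part in heat pain after inflammation, had 61.8, 49.0, 44.2 and 94.1 CPM in marked and 84.4, 74.9, 64.9 and 133 CPM in unmarked nuclei at days 2, 7, 21 and 75. It was lower in all 4 IOT libraries (log2 -0.48 ± 0.09, edgeR adjusted p = 0.00135). In large nuclei alone Hdac4 was not called, as given below by size class. The control had 55.1 against 92.5 CPM, though its marked nuclei barely showed the injury program. Hdac9 stood at 791, 499, 838 and 534 CPM in marked against 638, 389, 603 and 572 CPM in unmarked nuclei, so that day 75 went the other way (log2 0.30 ± 0.10, edgeR adjusted p = 0.0428, 3 of 4 libraries). In the control Hdac9 was lower in marked nuclei, 424 against 623 CPM. Hdac5 had 15.8, 13.1, 15.3 and 14.3 CPM in marked against 18.1, 21.0, 22.5 and 15.8 CPM in unmarked nuclei, lower in each library and not called (log2 -0.31 ± 0.14, edgeR adjusted p = 0.174).

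Smaller in level were Hdac6, the cytoplasmic deacetylase of tubulin on the X chromosome, and Hdac11, the only class IV enzyme. Hdac6 had 17.0, 26.2, 31.2 and 12.9 CPM in marked and 12.1, 21.1, 16.7 and 12.3 CPM in unmarked nuclei at days 2, 7, 21 and 75 (log2 0.52 ± 0.15, edgeR adjusted p = 0.0307). Hdac11 had 12.7, 13.9, 20.02 and 15.6 CPM against 20.7, 27.9, 26.5 and 22.1 CPM, so that the highest marked value lay below the lowest unmarked one (log2 -0.59 ± 0.14, edgeR adjusted p = 0.00769). The calls for Hdac6 and Hdac9 were each lost under 9 of 15 other settings, and without the day 2 library the adjusted p of Hdac11 was 0.0589.

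None of the 7 acetyltransferases, 7 sirtuins, 16 JmjC and 2 amine oxidase demethylases and 14 members of the Kmt and Setd families passed the test after IOT. Kat2b had 77.8, 76.0, 89.5 and 68.2 CPM in marked and 77.4, 73.4, 83.5 and 66.9 CPM in unmarked nuclei at days 2, 7, 21 and 75 (log2 0.09 ± 0.09). Kat2a had 22.8, 25.3, 21.8 and 30.3 against 19.8, 29.6, 17.9 and 28.4 CPM (log2 0.14 ± 0.12), and Kmt2a 116, 116, 149.6 and 119.5 against 129.8, 123, 159.9 and 136 CPM (log2 -0.09 ± 0.08). Marked and unmarked levels of these 3 lay close together in each library.

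For Kdm6b, the eraser of lysine 27 methylation, the marked levels were 48.9, 46.6, 43.0 and 23.6 CPM and the unmarked ones 56.1, 43.1, 39.8 and 23.5 CPM (log2 0.03 ± 0.12). Sirt1, a nuclear deacetylase that uses NAD, had 17.2, 23.7, 15.9 and 9.81 CPM against 17.0, 17.2, 18.5 and 12.97 CPM (log2 0.01 ± 0.17). In the scratch lesion library Sirt1 was low in marked nuclei, 3.12 against 8.61 CPM.

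In the minor injury effect 9 of 65 members and 2350 of 15866 genes had an unadjusted p under 0.05. DESeq2 called 1 member there, Tet3, and edgeR called none, against 2.8% of all genes. Nor was any called in the difference between the IOT and minor injury effects, in which edgeR called 6 genes (0.0378%). There 2 of 65 members had an unadjusted p under 0.05, as did 876 of 15866 genes, and DESeq2 called 0 members. The 2 were Hdac6 with a difference of 0.76 and Sirt1 with 1.02. The effect of IOT on the 8 members above is therefore not shown to differ from that of minor injury. For the change of the effect over days, tested on 8 sums, edgeR called 5 of 15607 genes (0.032%) and 0 members, and DESeq2 called 0 members. Unadjusted p was under 0.05 for 2 of 65 members, Ezh2 and Tet3, and for 1175 of 15607 genes. Their slopes were -0.13 and -0.16 per doubling of days, which did not hold over all genes (edgeR adjusted p = 0.564 and 0.582). Leaving out day 2 called 2 members, Hdac9 and Tet3.

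The state effect was also fitted within each size class. A large nucleus has more UMIs of Nefh than of Scn10a and a small one the reverse. As Scn10a was itself lower in marked nuclei, the class of a marked nucleus is not independent of its state, and the values by class describe nuclei as classed. Over the 6 injury libraries, 7 members were called in large nuclei (10.8%, against 14.4% of 14859 genes). Tet3, Setd4, Hdac1 and Hdac9 were higher, by 1.10, 0.58, 0.49 and 0.46 on the log2 scale, and Hdac11, Dnmt3a and Kmt2e lower, by -0.59, -0.45 and -0.30. The Kmt2e call was lost under 11 of 16 other settings, among them leaving out day 2, 7 or 21 or facial injury (adjusted p = 0.191, 0.068, 0.0504 and 0.211), and the Setd4 call under 6, among them leaving out day 7 or 21 (0.105 and 0.167). Kmt2e was named after its values were seen. In small nuclei 2 were called (3.08%, against 7.38% of all genes). These were Hdac11 at -1.91, which rests on 0 to 3 UMIs a library in marked small nuclei, and Hdac4 at -0.68. The median of all genes in small nuclei was itself -0.156, and 0.087 with DESeq2, so falls there are to be read against it.

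Of the members called after IOT, Hdac4, Hdac9 and Tet3 had the following values by class. Hdac4 changed by -0.19 ± 0.10 in large nuclei (edgeR adjusted p = 0.253) and by -0.68 ± 0.15 in small ones (edgeR adjusted p = 0.00341), and Hdac9 by 0.46 ± 0.11 and 0.08 ± 0.12. For Tet3, marked large nuclei had 127, 190.1, 133 and 107 CPM at days 2, 7, 21 and 75 against 55.8, 46.7, 62.0 and 66.1 CPM in unmarked large ones, and marked small nuclei had 109, 97.7, 103 and 59.1 CPM against 60.7, 58.3, 64.6 and 79.8 CPM. Marked small nuclei numbered only 24 to 106 in these libraries. The difference of the state effect between the classes was called for 43 genes (0.289%) and for 0 members with edgeR and with DESeq2. Unadjusted p was under 0.05 for 5 of 65 members and for 1511 of 14859 genes. The 5 were Sirt4 with a difference of 1.84, Hdac11 with 1.32, Tet3 with 0.61, Hdac4 with 0.49 and Hdac9 with 0.38. Sirt4, a mitochondrial sirtuin named after its values were seen, and Hdac11 had 0 to 3 UMIs a library in marked small nuclei.

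More members were called by size class than by injury state, and the same held for all genes. By state after IOT, 12.3% of members and 16.3% of all genes were called. The tests differ in libraries and in residual degrees of freedom, so their counts do not rank the effects. Among unmarked nuclei 28 of 65 members differed between large and small nuclei over the 7 10x libraries (edgeR, adjusted p under 0.05), 8 higher and 20 lower in large nuclei. This is 43.1% of members, against 48.1% of 15891 genes; 12.3% of members were higher and 30.8% lower, against 24.5% and 23.6% of all genes. The median log2 fold change was -0.07 for the members and -0.01 for all genes. Without TMM scaling the split was 14 higher and 18 lower, with Ezh2, Hdac2, Kat2a, Kat2b, Kdm4c and Kmt5a gained and Hdac7 and Kdm6a lost. Large nuclei held more Kdm7a, Hdac3, Hdac8 and Hdac5, and small nuclei more Hdac9, Setd6, Hdac4 and Kdm2b. Schwann cell RNA moved with size class too. The 6 Schwann cell markers summed to 402 to 1080 CPM in large and 587 to 1501 CPM in small nuclei of the 10x libraries, higher in small nuclei in each, with no marker at 0. The 7 satellite glia markers summed to 299 to 901 CPM in large and 256 to 877 CPM in small nuclei. The part of these cells in the differences was not tested.

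**Figure D3:**
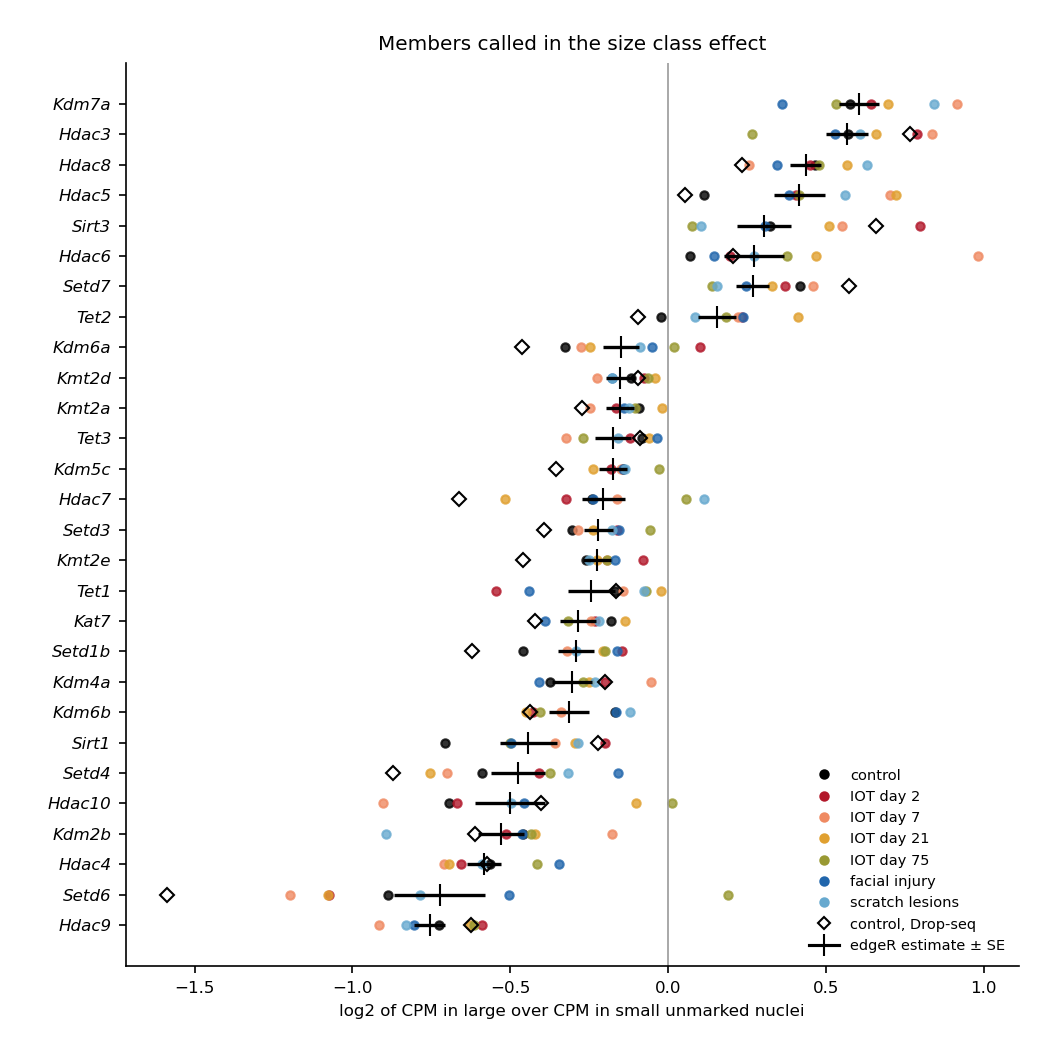
Log2 ratio of CPM in large over small unmarked nuclei for the 28 called members, with a dot for each 10x library, a diamond for the Drop-seq control and the edgeR estimate with its SE. Hdac9 and Hdac4 lie left of zero in all 7 10x libraries (estimates -0.76 and -0.58), and Kdm7a and Hdac3 right of it (0.61 and 0.57).

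Kdm7a, a demethylase of lysines 9 and 27 of histone H3, had the largest rise in large nuclei. Its levels there were 72.2, 70.5, 76.0, 91.4, 65.002, 69.3 and 74.6 CPM in the control, at days 2, 7, 21 and 75 after IOT, after facial injury and with scratch lesions, against 48.4, 45.2, 40.3, 56.4, 44.9, 54.0 and 41.6 CPM in small nuclei. The lowest large value exceeded the highest small value (log2 0.61 ± 0.06, edgeR adjusted p = 4.359e-07).

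The nuclear deacetylase Hdac3 had 69.5, 57.4, 88.1, 82.6, 45.0, 78.6 and 60.03 CPM in large and 46.8, 33.3, 49.3, 52.3, 37.4, 54.5 and 39.4 CPM in small nuclei in the same order of libraries (log2 0.57 ± 0.07, edgeR adjusted p = 1.425e-06). Hdac8, the X-linked class I enzyme, had 118, 136, 91.8, 106, 130.3, 64.9 and 100.1 against 85.6, 99.8, 76.8, 71.6, 93.5, 51.1 and 64.7 CPM (log2 0.44 ± 0.05). Both were higher in large nuclei of every library, and their levels in the 2 classes overlapped between libraries.

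Hdac5 had 23.1, 20.9, 24.1, 26.5, 18.5, 36.7 and 32.1 CPM in large and 21.3, 15.7, 14.8, 16.1, 13.9, 28.1 and 21.7 CPM in small nuclei (log2 0.42 ± 0.08). Setd7, a methyltransferase of histone H3 lysine 4 and of other proteins, had 200.4, 161, 199, 187, 147, 223 and 152 against 150.1, 124, 145, 149, 134, 188 and 136 CPM (log2 0.27 ± 0.05). Both were higher in large nuclei in 7 of 7 libraries. Sirt3, the mitochondrial deacetylase, at 0.30 ± 0.09, Hdac6 at 0.27 ± 0.10 and Tet2 at 0.16 ± 0.06 completed the higher group, with large over small in 7, 7 and 6 of the 7 libraries. Sirt3 ranged over 20.5 to 46.1 CPM in large and 15.0 to 37.3 CPM in small nuclei, Hdac6 over 12.5 to 26.4 and 10.6 to 23.9 CPM, and Tet2 over 49.1 to 75.0 and 43.3 to 66.9 CPM.

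Among enzymes of small nuclei, Hdac9 showed the largest difference. It stood at 779, 769, 502, 756, 699, 698 and 762 CPM in small and 471, 511, 266, 489.8, 456, 399.8 and 429 CPM in large nuclei, in the control, at days 2, 7, 21 and 75, after facial injury and with scratch lesions. Only the small nuclei of day 7, at 502 CPM, lay below a large value, the 511 CPM of day 2 (log2 -0.76 ± 0.05, edgeR adjusted p = 1.252e-09). In the Drop-seq control, where Hdac9 was far lower, the order was the same with 76.4 CPM in small and 49.6 CPM in large nuclei.

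Hdac4 had 113, 109, 96.6, 88.3, 156, 94.1 and 145 CPM in small and 76.6, 69.0, 59.1, 54.6, 117, 74.0 and 96.5 CPM in large nuclei (log2 -0.58 ± 0.05, edgeR adjusted p = 8.426e-08). Kdm2b, a demethylase that also recruits Polycomb complexes to CpG islands, had 56.0, 71.1, 59.6, 42.9, 56.6, 27.9 and 59.6 against 40.7, 49.9, 52.7, 32.0, 41.9, 20.3 and 32.1 CPM (log2 -0.53 ± 0.07). Small nuclei were higher in all 7 libraries for both.

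The other falls in large nuclei that the rule names were in low members. Setd6, a methyltransferase of the NF-kB subunit RelA, ranged over 3.38 to 11.7 CPM in large and 6.03 to 16.7 CPM in small nuclei (log2 -0.72 ± 0.14, 6 of 7 libraries). Hdac10, a polyamine deacetylase, ranged over 5.89 to 15.6 and 5.84 to 21.4 CPM (log2 -0.50 ± 0.11, 6 of 7). Setd4 ranged over 13.6 to 20.3 and 17.0 to 30.6 CPM (log2 -0.48 ± 0.09, 7 of 7). Sirt1 ranged over 7.73 to 16.5 and 9.43 to 20.2 CPM (log2 -0.44 ± 0.09, 7 of 7), and Kdm6b over 20.1 to 67.5 and 26.7 to 75.9 CPM (log2 -0.31 ± 0.06, 7 of 7). For each of these 5 the ranges of the size classes overlapped.

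By role, class IIa deacetylases were split by size, with Hdac9, Hdac4 and Hdac7 (-0.21) lower and Hdac5 higher in large nuclei, whereas the class I enzymes Hdac3 and Hdac8 were higher and Hdac1 and Hdac2 not called. The Tet oxidases also went both ways, Tet2 higher at 0.16 and Tet1 and Tet3 lower at -0.24 and -0.17, but the Tet2 call was lost under 9 of 14 other settings, DESeq2 among them (adjusted p = 0.128), and the Tet3 effect was 0.01748 with all nuclei. Of the remaining members, those called lower had log2 fold changes from -0.30 to -0.15, and all of these were in the Kat, Kdm, Kmt and Setd families. Dnmt3a (0.07 ± 0.04), Dnmt1 (-0.09 ± 0.09), Ezh1 (-0.13 ± 0.07), Ezh2 (0.16 ± 0.07), Kat2a (0.18 ± 0.08) and Kat2b (0.10 ± 0.05) did not pass the test. Of 27 called members listed in Drop-seq, 26 (96.3%) had the same direction there, Tet2 being the exception at 42.2 CPM in large and 45.1 CPM in small nuclei, beside 91.1% of the 6257 called genes with at least 20 UMIs.

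Unmarked nuclei were also set side by side between libraries, without a test, to see which enzymes stood apart in whole conditions. At days 2 and 7 after IOT, Ezh2 and Hdac1 were past 2-fold above the 10x control, the only rises among 64 members with enough UMIs (3.12% and 4.69% of members past 2-fold in either direction, against 9.06% and 9.57% of all genes).

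**Figure D4:**
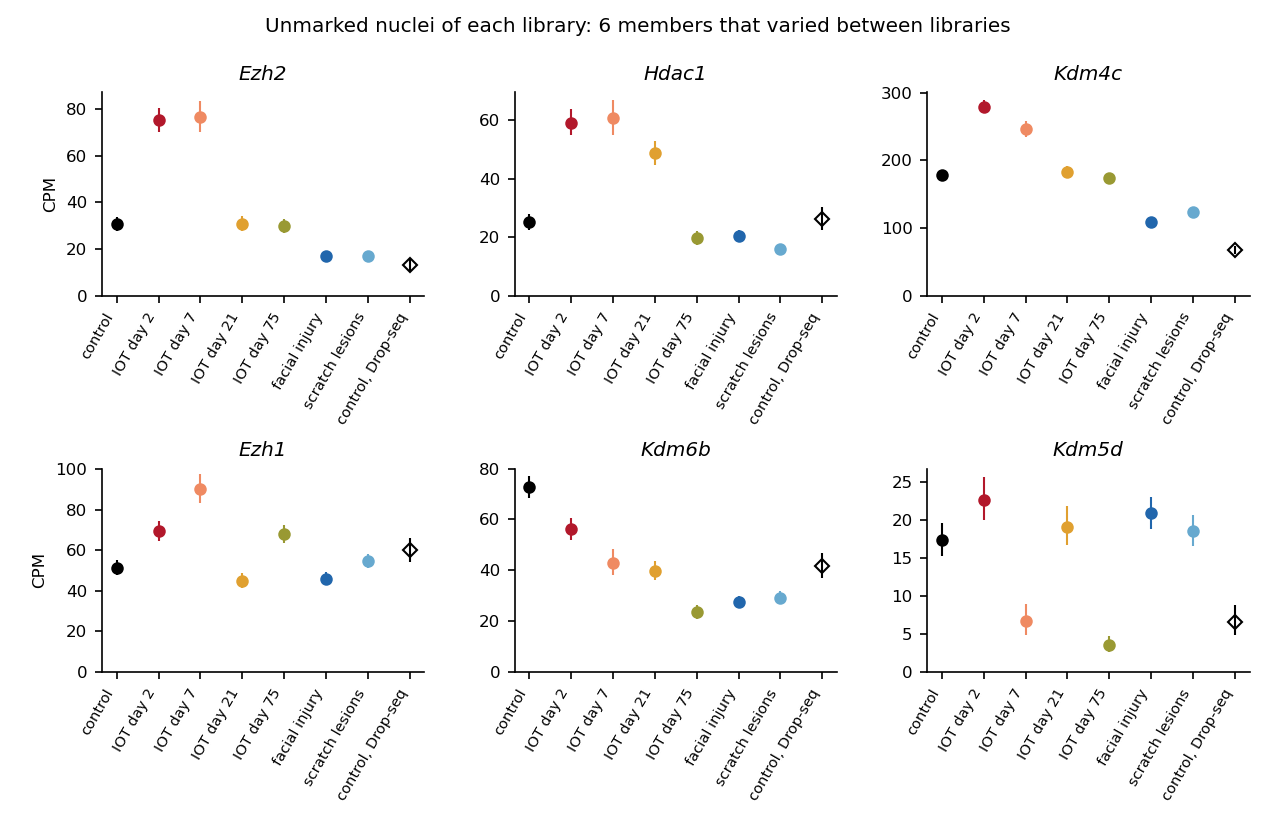
Level of Ezh2, Hdac1, Kdm4c, Ezh1, Kdm6b and Kdm5d in unmarked nuclei, in CPM with exact 95% Poisson intervals. Dots are 10x libraries and the diamond is the Drop-seq control. Ezh2 stands at 75.2 and 76.6 CPM at days 2 and 7 after IOT against 30.6 CPM in the 10x control, and Kdm6b is highest in the 10x control at 72.7 CPM.

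Ezh2 had 30.6 CPM in unmarked nuclei of the control, 75.2, 76.6, 30.8 and 29.9 CPM at days 2, 7, 21 and 75 after IOT, 16.8 CPM after facial injury and 17.0 CPM with scratch lesions. It was 2.46-fold (2.19 to 2.76) and 2.50-fold (2.20 to 2.85) above the control at days 2 and 7 and 0.55-fold (0.475 to 0.636) after facial injury. The elevation was present in large nuclei (76.1 and 78.3 against 32.0 CPM) and in small ones (67.3 and 61.6 against 28.5 CPM). Ezh2 thus stood in 3 levels, with days 21 and 75 alike to the control within their intervals.

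Hdac1 had 25.1 CPM in the control, 59.2, 60.8, 48.8 and 19.7 CPM at days 2, 7, 21 and 75, 20.5 CPM after facial injury and 15.8 CPM with scratch lesions. It differed from Ezh2 at day 21, where it was still 1.94-fold (1.70 to 2.22) above the control. Ezh1 had 51.3 CPM in the control, 69.6, 90.2, 45.1 and 67.9 CPM over the IOT days, 46.0 CPM after facial injury and 54.9 CPM with scratch lesions. Kdm4c, a demethylase of histone H3 lysine 9 singled out after its values were seen, had 179 CPM in the control, 279, 246, 183 and 174 CPM over the IOT days, 109 CPM after facial injury and 123 CPM with scratch lesions. Days 2 and 7 were the highest libraries for all 4 genes.

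Other cells moved with these libraries. Schwann cell markers summed to 680 CPM in unmarked nuclei of the control and to 1067 and 1309 CPM at days 2 and 7, with all 6 detected, and to 479 to 953 CPM in the other 10x libraries. The 4 vascular markers summed to 35.0 and 34.2 CPM at days 2 and 7 and 9.28 to 19.9 CPM elsewhere on 10x, all detected, while the satellite glia sum was lowest there. In unmarked nuclei without any UMI of the Schwann cell and satellite glia lists, a selection made after seeing the data whose nuclei had fewer UMIs (medians of 2161.5, 1419 and 2498 at day 2, day 7 and in the control), Ezh2 stood at 53.2 CPM (32.0 to 83.1, 148 nuclei) at day 2 and 102 CPM (81.2 to 127, 495 nuclei) at day 7, against 42.4 CPM (32.1 to 54.9, 473 nuclei) in the control. Hdac1 stood at 64.4 (40.8 to 96.6), 70.7 (53.4 to 91.8) and 50.4 CPM (38.7 to 64.5) at days 2, 7 and 21 against 22.3 CPM (15.0 to 31.8) in the control. The day 2 and control intervals of Ezh2 then overlapped. Kdm4c stood at 319 and 306 CPM at days 2 and 7 against 225 CPM. Each is 1 library, and the part of glial RNA in these values was not tested.

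Kdm6b was highest in the uninjured control. It had 72.7 CPM there, 56.1, 43.1, 39.8 and 23.5 CPM at days 2, 7, 21 and 75 after IOT, 27.5 CPM after facial injury and 29.2 CPM with scratch lesions, and the Drop-seq control had 41.8 CPM. The fold against the 10x control was lowest at day 75, 0.324 (0.284 to 0.367), but facial injury at day 2 gave 0.378 (0.340 to 0.420). Without nuclei holding glial UMIs the control had 89.2 CPM and day 2 had 89.6 CPM. The 10x control also exceeded the Drop-seq control, 1.69-fold (1.49 to 1.92) over all nuclei.

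Kdm5d, a demethylase of histone H3 lysine 4 on the Y chromosome, named here after its values were seen, had 17.3 CPM in the control, 22.6, 6.65, 19.1 and 3.54 CPM over the IOT days, 20.8 CPM after facial injury and 18.5 CPM with scratch lesions. The mix of males and females in each pool and a change of the gene cannot be told apart. The other members past 2-fold were Setd6 up and Setd1b down at day 21 (3.12% of members, 6.22% of genes), Sirt6 down beside Kdm5d and Kdm6b at day 75 (4.69%, 6.51% of genes), Setd6 and Sirt3 up and Kdm2b and Kdm6b down after facial injury (6.15%, 14.5% of genes) and Kdm6b and Kmt2d down with scratch lesions (3.08%, 10.9% of genes). Setd6 rose from 4.77 CPM in the control to 10.5 CPM at day 21 and 13.1 CPM after facial injury, Sirt3 from 18.7 to 42.7 CPM after facial injury, and Kmt2d went from 148 to 67.3 CPM with scratch lesions.

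The remaining always-listed members were within 2-fold of the control in unmarked nuclei of each injury library. Over the 7 10x libraries Dnmt1 ranged from 12.5 to 22.2 CPM, Tet1 from 19.0 to 40.2, Tet2 from 46.6 to 72.1 and Tet3 from 38.3 to 73.2 CPM. Hdac2 ranged from 54.7 to 89.4 CPM, Hdac3 from 40.8 to 70.9 and Hdac5 from 15.8 to 34.3 CPM. Kat2a ranged from 17.9 to 34.3 CPM, Kat2b from 54.0 to 83.5, Sirt1 from 8.61 to 18.5 and Kmt2a from 114 to 159.9 CPM. For Tet1, Tet3 and Dnmt3a the facial injury library was lowest of the 7.

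Partners and relatives outside the symbol rule were counted with the same IOT test. Of 12 tested readers of methyl-DNA and factors of its turnover, 4 rose in marked nuclei and 1 fell, with a median log2 fold change of 0.17. The rises were Gadd45a (2.40), a stress protein that also belongs to the injury program list, Gadd45g (1.004), the cytidine deaminase Apobec1 (0.98) and the methyl-CpG binding repressor Zbtb38 (0.84), and the fall was Mbd6 (-0.40). Of 20 Polycomb partners 3 rose and none fell, Pcgf5 (0.96), Pcgf2 (0.72) and Aebp2 (0.37), with a list median of -0.02. Among 18 corepressor partners of Hdac enzymes, Tbl1xr1 rose (0.28) and Rcor2 (-0.80) and Chd3 (-0.58) fell. Of the acetyltransferases outside the rule Hat1 rose (0.51) and Clock (-0.26) and Ncoa2 (-0.25) fell, and of the methyltransferases Prmt8, an arginine methyltransferase of neurons, fell (-1.33). The demethylase relative Jmjd1c (0.36) and the acetyl reader Brpf3 (0.53) rose, and 0 of 7 COMPASS partners of the Kmt2 enzymes were called. Beside these counts, 8.97% of all genes rose and 7.3% fell. With minor injury 3 of the methyl-DNA list rose, Gadd45a, Gadd45g and Zbtb38, and no gene of the other 7 lists was called.

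With size class, 11 of 18 corepressor partners tested were lower and 1 higher in large nuclei, with a median log2 fold change of -0.18, among them Chd3 (-0.67), Tbl1x (-0.36) and Sin3a (-0.34), beside 23.6% lower and 24.5% higher among all genes. Polycomb partners went both ways, 6 higher and 4 lower of 20, among them Pcgf5 (0.54), Pcgf6 (-0.40) and Mtf2 (0.34). Methyl-DNA genes had 1 higher, Gadd45b (0.82), and 5 lower, led by Gadd45g (-0.60). Of 18 methyltransferases outside the rule, Smyd2 was higher (0.43) and 7 were lower, led by Prmt8 (-1.07) and Suv39h1 (-0.52), and 4 of 8 acetyltransferases were lower, from Ncoa3 (-0.26) to Clock (-0.15).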

How the data were processed

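The authors deposited a table of UMI counts for each library, with a row a gene and a column a nucleus, made from 10x version 2 or Drop-seq libraries of anti-NeuN enriched trigeminal nuclei. The submitters' processing notes name bcl2fastq 2.17, Cell Ranger 2.1.0, STAR 2.5.3a, Seurat 2 and build mm10. Introns were counted, so long genes gain UMIs. Before deposit, nuclei with few genes or much mitochondrial RNA and clusters of other cells were removed by the authors. The sources used here do not give the annotation version. Per the study's notes, counting introns removed genes from stretches shared by overlapping genes, Tubb3 among them. The effect of this on the members was not tested. The 8 tables hold 40359 nuclei and 132982556 UMIs, with library medians of 1747 to 4178.5 UMIs a nucleus. No further filter on nuclei or doublets was applied.

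Counts were summed by library, state and size class. Nuclei are not replicates, so conditions with 1 library each were compared without a test, and tests compared nuclei classes within library. The sums were 12 for state in 6 injury libraries (4 residual degrees of freedom), 8 for the trend, 24 for state by size class and 14 for size class. Library was the pairing block, since both sums come from the same nuclei suspension. For state by size class the block was instead each size class of each library (10 residual degrees of freedom). Large and small sums of 1 library thus count there as separate blocks, though they share a suspension. p-values measure the spread between libraries, each a pool of mice, or there between these blocks. edgeR 4.0.16 quasi-likelihood fits used TMM, filterByExpr and these blocks. The SE of an estimate was taken as its size divided by the root of the F statistic. On simulated counts the IOT state fit recovered 75.3% of genes changed by 1 and 97.9% of those changed by 2 on the log2 scale (15220 genes). For the trend it was 64% and 97% (15120 genes), for size class 95.8% and 100% (15287 genes), and for the difference large minus small 47.4% and 81.7% (13997 genes). False calls numbered 9, 9, 5 and 3 in this order. A trend change is its size at the day farthest from the mean, not per doubling of days. All genes shared a common dispersion, each had the same mean in all sums, and effects did not vary between libraries. These shares therefore do not measure power in the real data. The Drop-seq table, in which 4 libraries cannot be told apart, entered no test.

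Members and gene lists were chosen with earlier results of these data known. Values are given for members called after IOT (up to 10 each way), by size (up to 8 each way), in a difference or trend (up to 6), and for Dnmt1, Dnmt3a, Tet1 to Tet3, Ezh1, Ezh2, Hdac1 to Hdac6, Hdac9, Kdm6b, Kat2a, Kat2b, Sirt1 and Kmt2a. Of other lists, up to 4 called genes are named, and some list genes are not reported here. Alternatives were DESeq2 1.42.0, no TMM, no filter, no block, a library-by-size block, other marking and size rules, thinning to 1000 UMIs and leaving out each library. Promoters came from RefSeq and gene positions from GENCODE.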

Additional observations from a re-analysis of the deposited data

How the results depend on the processing

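Tet3 kept its IOT call under all 15 alternatives, with log2 fold changes between 0.65 and 1.40, and 5 of 28 size calls were kept under all 14, those of Hdac3, Hdac4, Hdac9, Kdm7a and Setd4. The 8 members called after IOT became 5 with DESeq2 and 1 with no replicate block, and 2 to 12 when 1 library was left out (2 without day 2, 5 without day 21, 12 without day 75). Dnmt3a lost its call in 5 settings, among them DESeq2 (adjusted p = 0.0798) and without day 2 (0.131) or day 21 (0.144). Ezh2 lost it also with the library-by-size class as replicate block (adjusted p = 0.175). For minor injury, where 0 members were called, DESeq2, no TMM scaling and no low-count filter gave 1 each, marking by at least 3 UMIs and the library-by-size block 2 each, Atf3 alone 3, and leaving out 1 library 0 to 2. For the trend, 0 became 2 without day 2 (range 0 to 2). The 28 size calls became 5 with no replicate block, and the Tet3 size effect reversed to 0.01748 (log2, adjusted p = 0.851) when all nuclei were used. In small nuclei 2 calls became 1 with DESeq2, with no block, with Atf3 alone, after thinning to 1000 UMIs and with a size difference of at least 2 UMIs, and 4 with nuclei holding UMIs of only 1 size gene. In large nuclei 7 became 4 with DESeq2 and 1 with no block. The difference large minus small, 0 members, became 1 (Hdac4) with that exclusive size rule. The causes were not tested. Over all genes, the 2582 IOT calls became 284 with no block and 1547 without day 2, the 7646 size calls 2596 with no block, and the 444 minor injury calls 2 with no block and 21 to 801 when 1 library was left out. The trend's 5 calls ranged from 0 to 700. The median of all genes in small nuclei was -0.156, and -0.0075 without TMM. Marked small nuclei were few, with 16 to 106 in the injury libraries, which limits their values.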
